A study of Homo sapiens with 4 samples.

Results

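The sterol regulatory element-binding protein (SREBP) pathway, with the enzymes of cholesterol and fatty acid synthesis that it controls, was examined in the human liver cancer line Huh-7 (hepatocellular carcinoma) after treatment with transforming growth factor beta (TGF-beta). A list of 40 genes was used, made up of 5 regulators, 18 genes of the sterol arm and 17 genes of the fatty acid arm. The members were found as array probe sets whose only platform gene symbol, current or older, was on the list, and the brightest probe set stood for each gene. This gave 36 of the 40 members among 12165 genes in all. HSD17B7 was not used because its probe set also names another gene, and FDFT1, ACSL3 and THRSP were not analysed here.

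The study used 4 Affymetrix arrays, 2 of TGF-beta-treated cells harvested after 48 h and 2 of untreated cells, with no other agent named for either group. All cells were of the same line, which is a single tumour-derived model, and all were cultured with fetal bovine serum, so lipoproteins of the serum were present in both groups. No source used here states how much TGF-beta was added. Nothing in the labels ties the arrays of a group to separate cultures, so every p-value rests on array-to-array spread that may be technical.

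The deposited values are linear probe set intensities, and folds were taken between geometric means. The median intensity over all probe sets was 51.0 and 50.7 on the TGF-beta arrays and 50.3 and 50.1 on the untreated arrays. Of 9 hepatocyte markers 8 were measured, at intensities of 1088 to 35746, with ALB (albumin) at 35746 and 35526 in TGF-beta-treated cells and 33581 and 34263 in untreated cells. Of these 8, limma called APOA1 (an apolipoprotein) higher, with a log2 fold change of 0.74 (adjusted p = 0.0378), and TTR (transthyretin) lower, at -0.63 (adjusted p = 0.0470). Of 17 measured markers of fibroblasts, leukocytes and endothelium, 14 stayed at or below 60.6 on every array. The exceptions were LUM, CD14 and CD3D, named after their values were seen. LUM, from the fibroblast list, was bright, at 6777 and 7292 in TGF-beta-treated cells and 7184 and 6692 in untreated cells. These values lie within the range of the hepatocyte markers. CD3D had 154 and 163 against 285 and 204 in untreated cells. Of the exceptions CD14 was called, at 146 and 157 in TGF-beta-treated cells against 75.6 and 75.4 in untreated cells (limma adjusted p = 0.0167). The arrays read bulk RNA, in which fewer expressing cells and less RNA per cell cannot be told apart.

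SREBPs are transcription factors made as precursors in the membrane of the endoplasmic reticulum. SCAP escorts them to the Golgi when sterols are scarce, where proteases free the active part, and INSIG proteins hold SCAP back when sterols are plentiful. The product of SREBF2 acts mainly on cholesterol synthesis and that of SREBF1 mainly on fatty acid synthesis, and the liver is a main site of both. At promoters SREBPs work together with NF-Y, which binds the CCAAT box, and with SP1, which binds the GC box.

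The promoter windows of 6 members, picked by hand, are shown as examples. They are both SREBP genes, the sterol genes HMGCS1, MSMO1 and LSS, and the fatty acid gene FADS2. The choice does not follow the size of the change, since SC5D, AGPAT2 and LPIN1 are left out. No window of AGPAT2 or LPIN1 holds a CCAAT box, while those of SC5D do. Each runs 5' to 3' on the gene's strand, from 250 bases before to 50 bases after a transcription start, from RefSeq on GRCh38.p14. Capitals mark the CCAAT box (CCAAT or its reverse complement) and the core of the sterol regulatory element (TCACNCCAC on either strand). The windows lie at chr17:17836937-17837236 (SREBF1, minus strand), chr22:41832855-41833154 (SREBF2, plus), chr5:43313363-43313662 (HMGCS1, minus), chr4:165327419-165327718 (MSMO1, plus), chr21:46228725-46229024 (LSS, minus) and chr11:61816154-61816453 (FADS2, plus).
SREBF1: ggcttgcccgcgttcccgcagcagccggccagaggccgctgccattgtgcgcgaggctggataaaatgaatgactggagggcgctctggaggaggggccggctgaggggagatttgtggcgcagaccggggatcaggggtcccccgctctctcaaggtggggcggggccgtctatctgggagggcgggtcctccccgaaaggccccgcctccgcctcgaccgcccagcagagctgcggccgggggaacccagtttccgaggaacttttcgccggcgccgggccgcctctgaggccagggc
SREBF2: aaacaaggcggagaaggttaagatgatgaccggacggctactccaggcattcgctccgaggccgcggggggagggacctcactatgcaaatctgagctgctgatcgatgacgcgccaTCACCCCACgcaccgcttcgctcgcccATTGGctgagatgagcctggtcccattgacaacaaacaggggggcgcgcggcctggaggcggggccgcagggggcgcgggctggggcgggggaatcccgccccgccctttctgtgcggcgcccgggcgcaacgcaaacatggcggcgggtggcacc
HMGCS1: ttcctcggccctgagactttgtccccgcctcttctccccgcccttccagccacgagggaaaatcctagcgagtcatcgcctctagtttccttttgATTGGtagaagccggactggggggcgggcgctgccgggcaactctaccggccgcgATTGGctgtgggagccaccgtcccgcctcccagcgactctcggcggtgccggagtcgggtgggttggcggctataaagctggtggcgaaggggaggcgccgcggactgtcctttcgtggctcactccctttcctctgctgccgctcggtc
MSMO1: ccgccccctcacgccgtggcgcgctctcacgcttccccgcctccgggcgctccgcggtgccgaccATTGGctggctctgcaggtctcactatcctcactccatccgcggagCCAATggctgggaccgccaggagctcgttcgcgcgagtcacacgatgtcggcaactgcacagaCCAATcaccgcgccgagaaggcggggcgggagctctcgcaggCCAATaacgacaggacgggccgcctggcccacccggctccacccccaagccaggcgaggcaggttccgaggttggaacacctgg
LSS: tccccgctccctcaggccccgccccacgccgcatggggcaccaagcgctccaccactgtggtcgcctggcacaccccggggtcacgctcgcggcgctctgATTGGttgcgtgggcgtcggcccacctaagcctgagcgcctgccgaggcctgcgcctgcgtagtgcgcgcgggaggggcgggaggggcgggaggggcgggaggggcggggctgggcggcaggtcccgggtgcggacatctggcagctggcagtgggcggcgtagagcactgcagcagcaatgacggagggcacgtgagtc
FADS2: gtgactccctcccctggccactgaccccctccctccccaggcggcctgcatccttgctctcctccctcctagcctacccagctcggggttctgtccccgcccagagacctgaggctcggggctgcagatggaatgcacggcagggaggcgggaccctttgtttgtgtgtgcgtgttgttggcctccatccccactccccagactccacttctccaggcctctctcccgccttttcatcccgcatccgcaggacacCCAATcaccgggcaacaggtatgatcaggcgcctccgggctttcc

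The SREBF2 window holds the element core at position -129 from the start and a CCAAT box at -104, and the SREBF1 window holds neither. The HMGCS1 window has CCAAT boxes at -153 and -98, the MSMO1 window has 4, and those of LSS and FADS2 have 1 each, at -148 and 7. HMGCS1 and FADS2 have 2 windows each, of which the one with a CCAAT box is shown. Among members, 35 had windows in the RefSeq set used here, 52 in all, since some genes have several starts and their windows can overlap. That set held no window for FDFT1, SQLE, ACAT2, FASN and DGAT1. It did hold windows of HSD17B7, ACSL3 and THRSP, which have no array values here. The arm counts of windows thus do not cover the same genes as the array values. A CCAAT box was found in windows of 13 of 15 sterol arm genes and of 9 of 15 fatty acid arm genes, against 39.7% of all genes with a window. By window the counts were 15 of 20 in the sterol arm and 11 of 26 in the fatty acid arm, against 34.6% of 35116 windows.

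The element core was found in 0 of 20 sterol arm windows, 1 of 26 fatty acid arm windows (ACSL1) and 1 of 6 regulator windows (SREBF2), against 1.13% of all windows. These windows are short, and the count says only that those letters are not in them. A GC box (GGGCGG on either strand) was in windows of 14 of 15 sterol arm genes and 13 of 15 fatty acid arm genes. Over all 27305 genes with a window, a larger set than the array genes, the share was 48.3%. By window the counts were 18 of 20 in the sterol arm and 17 of 26 in the fatty acid arm, against 45% of all windows. No CCAAT box overlapped a GC box or an element core in members' windows, and 2 pairs of CCAAT boxes overlapped each other on opposite strands.

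**Figure D1:**
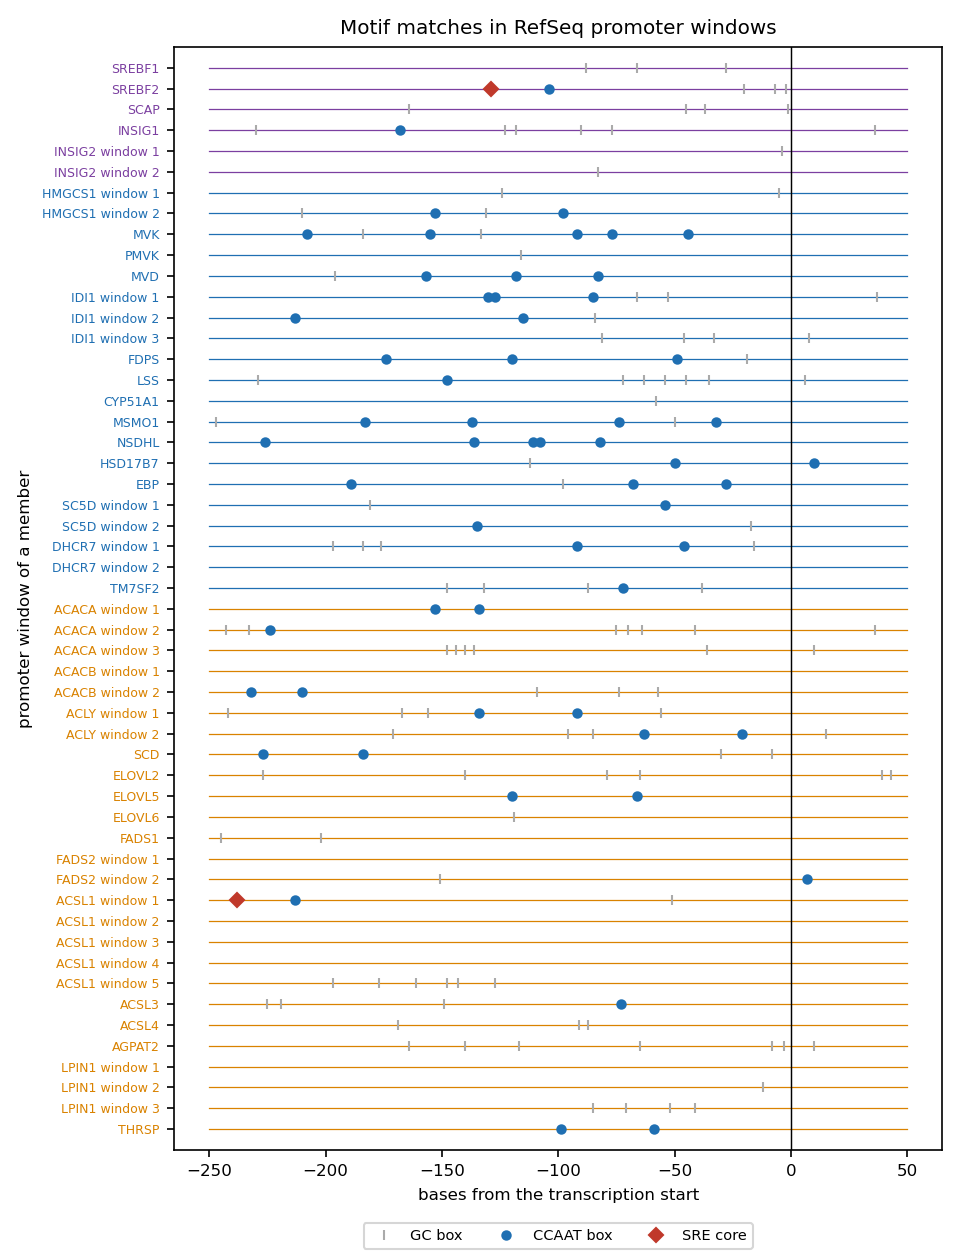
Motif matches in the 52 promoter windows of 35 members, by distance in bases from the transcription start. Each line is a window, coloured purple for regulators, blue for the sterol arm and orange for the fatty acid arm; blue points are CCAAT boxes, grey ticks GC boxes and red diamonds the sterol regulatory element core. CCAAT boxes stand in 15 of 20 sterol arm windows and 11 of 26 fatty acid arm windows.

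Among the regulators, SREBF1 was the member that changed at an adjusted p under 0.05. SREBF1 had intensities of 74.7 and 61.5 in TGF-beta-treated cells, against 38.4 and 39.6 in untreated cells. The groups did not overlap, and the gene ranked at percentile 48.3 of all genes with TGF-beta and 35.0 without it. SREBF1 was dim, with a mean log2 intensity of 5.68. Its untreated values lay within the range of the 14 low markers of other cell types (up to 60.6). The lower TGF-beta value was just above that range. SREBF1 rose 1.74-fold (log2 fold change 0.80 ± 0.13, SE, n = 2 per group, limma adjusted p = 0.0403). The call was lost under quantile normalization (limma adjusted p = 0.0530) and with an offset of 16 added to the intensities (0.0514). It held under median centring (0.0352), where other genes took the mean of their probe sets (0.0415), and with limma-trend (0.0113). A replicate block, a pairing that the labels do not give, also kept it (6.7e-06). Leaving out 1 array leaves a single array in a group, so no call is read there. The log2 fold change then ran from 0.66 to 0.94. The gene has a single probe set here, and the files do not say which of its transcript forms that probe set reads.

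SREBF2, the gene of the other SREBP, had intensities of 131 and 148 in TGF-beta-treated cells and 133 and 141 in untreated cells. Its arrays overlapped, with a log2 fold change of 0.03 ± 0.12 (SE) and a 95% interval of -0.24 to 0.30. A second, dimmer SREBF2 probe set gave 0.27 ± 0.12. The difference between the changes of the SREBP genes was not tested.

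SCAP, the escort protein, had intensities of 179 and 175 in TGF-beta-treated cells, against 155 and 125 in untreated cells. Both TGF-beta arrays were above both untreated arrays, with a log2 fold change of 0.35 ± 0.13 (SE, adjusted p = 0.225), which was 0.50 without untreated replicate 1 and 0.19 without untreated replicate 2. INSIG1, itself a well-known SREBP target, stood at 2311 and 2716 in TGF-beta-treated cells and 2761 and 3447 in untreated cells. Its groups were only just apart, and the log2 fold change was -0.30 ± 0.15 (SE, adjusted p = 0.334), which was -0.18 without TGF-beta replicate 1, -0.46 without untreated replicate 1 and -0.14 without untreated replicate 2. The other probe sets of INSIG1 gave -0.38 ± 0.11 and -0.24 ± 0.11.

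INSIG2, the related retention protein, had intensities of 964 and 989 in TGF-beta-treated cells, against 1117 and 1123 in untreated cells. Its log2 fold change was -0.20 ± 0.10 (SE, adjusted p = 0.371), with both TGF-beta arrays lower. Among regulators both INSIG genes thus had lower intensities and SCAP and SREBF1 higher ones on every array after TGF-beta. Such separation of the arrays was common, at 49.1% of all genes (23.3% above, 25.9% below). Only SREBF1, a dim gene, passed the test.

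**Figure D2:**
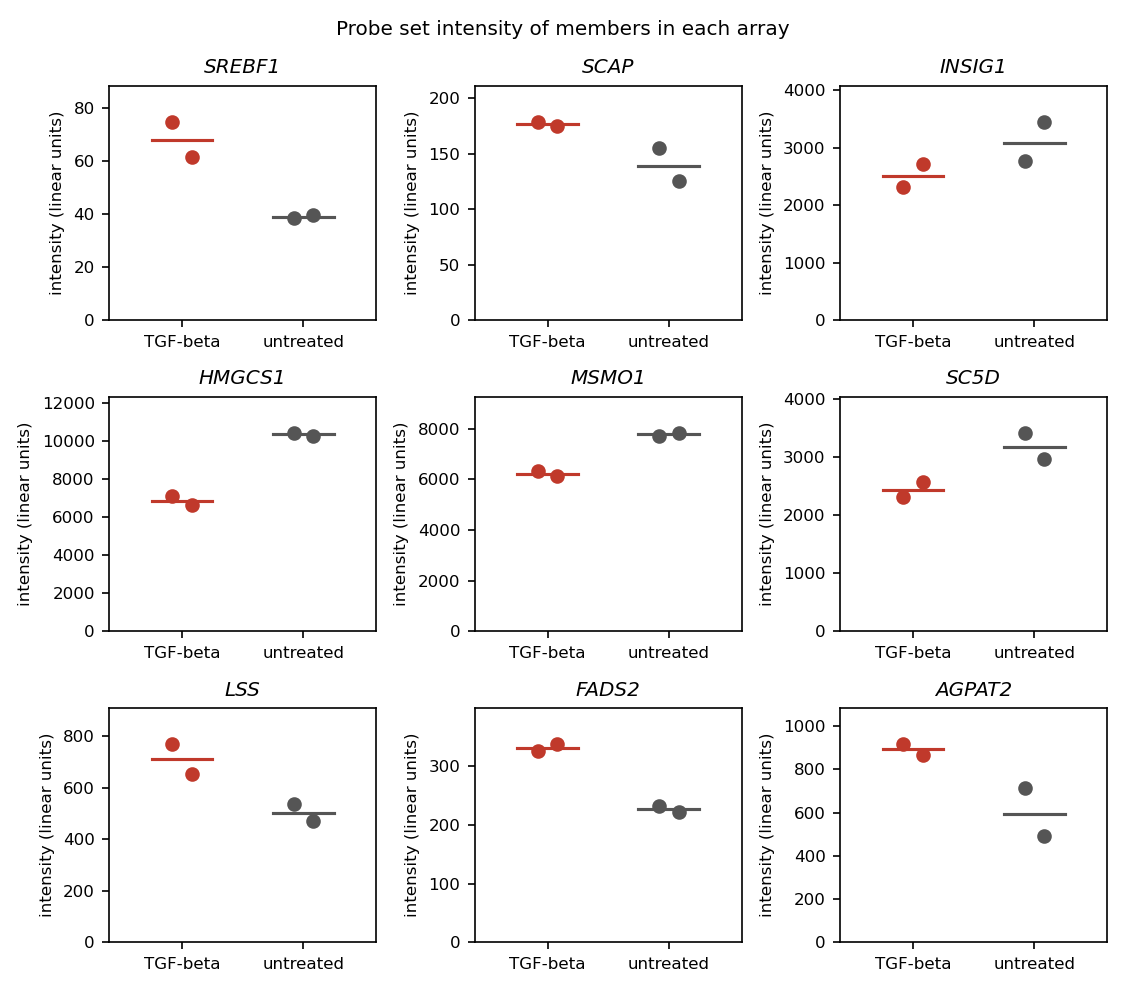
Intensity on each array (linear units, axes from 0) of 9 members, with TGF-beta in red on the left, untreated in grey on the right and bars at the geometric means of 2 arrays. SREBF1 stands at 74.7 and 61.5 in TGF-beta-treated cells against 38.4 and 39.6 in untreated cells, and HMGCS1 at 7101 and 6668 against 10443 and 10273.

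Over all members, 1 of 36 was called, higher after TGF-beta, where 1.22% of all genes were (0.658% higher, 0.567% lower). At an unadjusted p under 0.05 there were 14 of 36 members (38.9%), 6 with higher and 8 with lower values after TGF-beta, where 18.0% of all genes passed (9.35% higher, 8.60% lower). The groups of arrays did not overlap in 22 of 36 members (61.1%), where 49.1% of all genes separated. The median log2 fold change of the members was -0.03 and their mean 0.003, beside a median of -0.01 over all genes.

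In the sterol arm 0 of 16 measured members were called by limma, against 1.22% of all genes. At an unadjusted p under 0.05 there were 7 (43.8%), 2 with higher and 5 with lower values. Of all genes 18.0% passed that limit (9.35% higher, 8.60% lower). The arrays separated in 12 of the 16, with TGF-beta below in 8 of 16 (25.9% of all genes) and above in 4 of 16 (23.3% of all genes). The median log2 fold change was -0.11 and the mean -0.06.

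HMGCS1, an early enzyme of the mevalonate pathway, had the lowest log2 fold change of all members. Its intensities were 7101 and 6668 in TGF-beta-treated cells, against 10443 and 10273 in untreated cells. The groups were far apart next to the spread within each, and the log2 fold change was -0.59 ± 0.11 (SE, 95% interval -0.84 to -0.34). Its adjusted p of 0.0517 missed the threshold. It was 9.5e-05 with limma-trend, 0.0011 with a replicate block, 0.0435 under median centring and 0.0413 with an offset of 16. By contrast it was 0.0724 with the mean of all probe sets, 0.0628 under quantile normalization and 0.0546 with dim genes left out. Without 1 array the log2 fold change ran from -0.64 to -0.54. The second probe set of HMGCS1 gave -0.43 ± 0.14.

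The next kinases of the pathway had values of the opposite sign. MVK, which phosphorylates mevalonate, had intensities of 142 and 151 in TGF-beta-treated cells, against 125 and 116 in untreated cells. PMVK, which adds the next phosphate, had 602 and 490 in TGF-beta-treated cells, against 417 and 468 in untreated cells. In both genes the TGF-beta arrays were higher, with log2 fold changes of 0.28 ± 0.11 (SE, adjusted p = 0.242) for MVK and 0.30 ± 0.14 (adjusted p = 0.303) for PMVK. The other MVK probe sets gave 0.13 ± 0.10 and 0.10 ± 0.16. MVD, the decarboxylase that follows, had the widest spread between TGF-beta arrays of the sterol arm, at 88.3 and 135, and overlapped with untreated cells at 101 and 109.

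IDI1, which interconverts the isoprenoid building blocks, had intensities of 6339 and 6503 in TGF-beta-treated cells, against 7637 and 7736 in untreated cells. The arrays of a group lay close together and the groups apart, with a log2 fold change of -0.26 ± 0.10 (SE, adjusted p = 0.249), and the other probe set gave -0.25 ± 0.11. Both IDI1 probe sets carry the suffix that Affymetrix gives to sets open to cross-hybridization. FDPS, which joins these units into farnesyl diphosphate, stood at 10973 and 9533 in TGF-beta-treated cells, against 11507 and 11522 in untreated cells. Its log2 fold change was -0.17 ± 0.12 (SE), with the first TGF-beta array near the untreated ones.

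SQLE, the squalene epoxidase, had intensities of 1815 and 1767 in TGF-beta-treated cells and 1901 and 2055 in untreated cells, with a log2 fold change of -0.14 ± 0.11 (SE). Its dimmer probe sets gave -0.15 ± 0.12 and -0.33 ± 0.10. LSS, which closes the ring system to form lanosterol, differed in sign from its neighbours. It had 771 and 654 in TGF-beta-treated cells, against 538 and 472 in untreated cells, and the groups did not overlap. The log2 fold change of LSS was 0.49 ± 0.13 (SE, adjusted p = 0.105), while its other, dimmer probe set gave -0.21 ± 0.11, so the direction holds for the brighter probe set only.

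After lanosterol, MSMO1, an oxidase that takes methyl groups off the sterol ring, had intensities of 6309 and 6145 in TGF-beta-treated cells, against 7725 and 7834 in untreated cells. Its groups were well separated, with a log2 fold change of -0.32 ± 0.10 (SE, adjusted p = 0.164). NSDHL, the dehydrogenase of the same demethylation, had 364 and 437 in TGF-beta-treated cells, against 536 and 465 in untreated cells. Its arrays separated by a small margin (-0.32 ± 0.13, SE, adjusted p = 0.264), and its other probe set gave -0.06 ± 0.12. SC5D, a late sterol desaturase, had 2311 and 2566 in TGF-beta-treated cells, against 3417 and 2957 in untreated cells. The TGF-beta arrays of SC5D were both lower (-0.38 ± 0.12, SE, adjusted p = 0.160), and its dim second probe set gave -0.54 ± 0.27.

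The other measured sterol genes had an unadjusted p of 0.05 or more. DHCR7, which makes cholesterol in the last step of a branch of the pathway, had a log2 fold change of 0.22 ± 0.13 (SE), with TGF-beta arrays higher and 0.22 ± 0.13 from its other probe set. ACAT2, the thiolase that makes acetoacetyl-CoA for the pathway, stood at -0.17 ± 0.10, with TGF-beta arrays lower. CYP51A1 (the lanosterol demethylase), EBP (a sterol isomerase) and TM7SF2 (a sterol reductase) had overlapping arrays and values of -0.05, -0.07 and 0.17. The second CYP51A1 probe set, nearly as bright, gave 0.22 ± 0.12 with TGF-beta arrays higher. CYP51A1 turned to 0.09 with the mean of its probe sets.

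**Figure D3:**
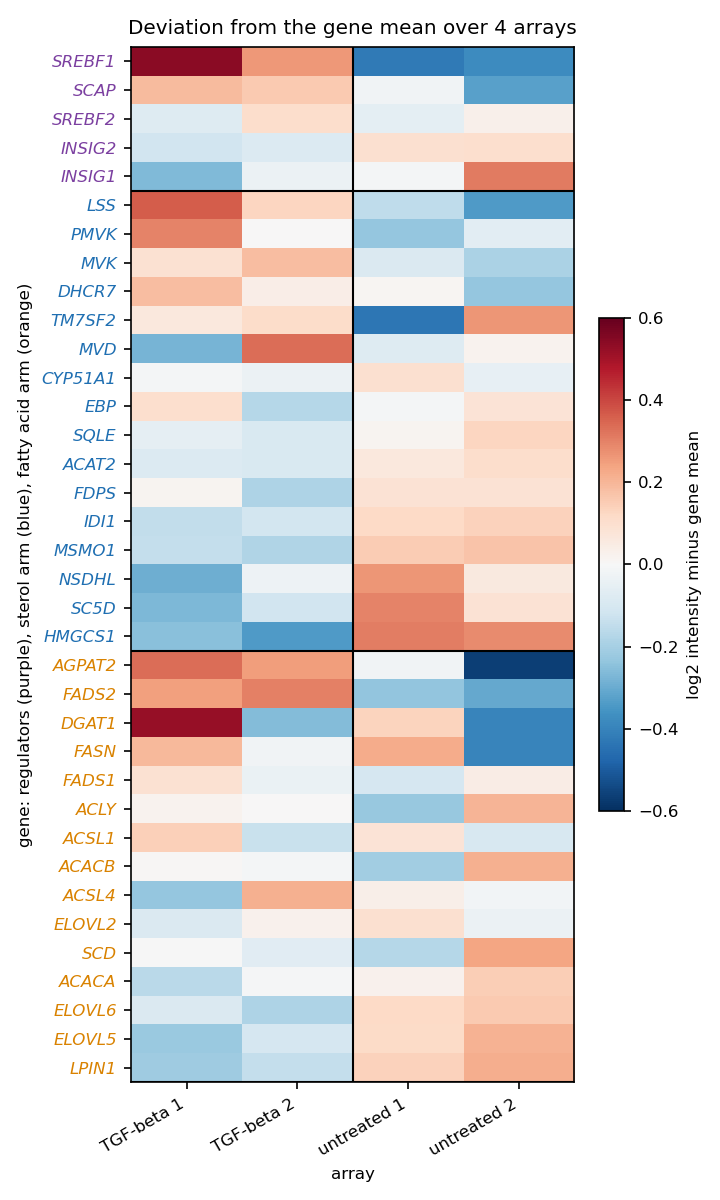
Log2 intensity of each measured member minus its mean over the 4 arrays (colour, red higher), with TGF-beta arrays in the left columns and untreated arrays in the right ones, grouped as regulators, sterol arm and fatty acid arm. In the sterol arm 8 of 16 genes, HMGCS1 among them, were lower on both TGF-beta arrays, against 25.9% of all genes. Another 4 were higher, against 23.3% of all genes. LSS is among these by its brighter probe set only.

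In the fatty acid arm 0 of 15 measured members were called by limma, against 1.22% of all genes. At an unadjusted p under 0.05 there were 5 (33.3%), 2 with higher and 3 with lower values. Of all genes 18.0% passed that limit (9.35% higher, 8.60% lower). The arrays separated in 6 of the 15 (49.1% of all genes). The arm had a median log2 fold change of -0.01 and a mean of 0.03.

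None of the enzymes that build saturated fatty acids from citrate had an unadjusted p under 0.05. ACLY, which makes cytosolic acetyl-CoA, had intensities of 1852 and 1825 in TGF-beta-treated cells and 1557 and 2103 in untreated cells, with both TGF-beta values between the untreated ones. FASN, the fatty acid synthase, had 593 and 511 in TGF-beta-treated cells and 606 and 394 in untreated cells. FASN thus overlapped, with a log2 fold change of 0.17 ± 0.20 (SE, 95% interval -0.29 to 0.64), and its dim second probe set gave -0.07 ± 0.12. ACACA, the main acetyl-CoA carboxylase of fatty acid synthesis, stood at -0.17 ± 0.11 and its mitochondrial relative ACACB at -0.01 ± 0.15. A dimmer ACACA probe set gave 0.05 ± 0.14. SCD, which makes monounsaturated fatty acids, had 5301 and 5059 in TGF-beta-treated cells and 4714 and 6259 in untreated cells (log2 fold change -0.07 ± 0.15).

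The desaturases and elongases were of mixed sign. FADS2, which introduces the first double bond in the making of long polyunsaturated fatty acids, had intensities of 325 and 338 in TGF-beta-treated cells, against 233 and 221 in untreated cells. The groups were far apart next to their spread, with a log2 fold change of 0.55 ± 0.11 (SE, 95% interval 0.30 to 0.79) and an adjusted p of 0.0557. With an offset of 16 the adjusted p was 0.0490, and it was 0.0498 where other genes took the mean of their probe sets, which left the single probe set of FADS2 as it was. It was 0.0462 with limma-trend, 0.0028 with a replicate block, 0.0558 under median centring, 0.0575 with dim genes left out and 0.0719 under quantile normalization. Without 1 array the log2 fold change of FADS2 ran from 0.51 to 0.58. FADS1, the next desaturase of that route, had 1940 and 1769 in TGF-beta-treated cells and 1699 and 1877 in untreated cells, which overlapped (0.05 ± 0.11). The other FADS1 probe sets, nearly as bright, gave -0.10 ± 0.12 and -0.04 ± 0.11.

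ELOVL5, an elongase of polyunsaturated fatty acids, had intensities of 2032 and 2212 in TGF-beta-treated cells, against 2571 and 2743 in untreated cells. ELOVL6, an elongase of saturated and monounsaturated fatty acids, had 1344 and 1256 in TGF-beta-treated cells, against 1549 and 1590 in untreated cells. Both elongases were lower on each TGF-beta array, with log2 fold changes of -0.32 ± 0.11 (SE, adjusted p = 0.187) for ELOVL5 and -0.27 ± 0.11 (adjusted p = 0.241) for ELOVL6. The second ELOVL6 probe set gave -0.65 ± 0.15, while a dim one of ELOVL5 gave 0.23 ± 0.12. ELOVL2, which elongates longer polyunsaturated chains, had overlapping arrays and a value of -0.06.

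In triglyceride synthesis AGPAT2, which makes phosphatidic acid, had intensities of 918 and 866 in TGF-beta-treated cells, against 716 and 491 in untreated cells. The TGF-beta arrays were higher, with a wide gap between the untreated ones, and the log2 fold change was 0.59 ± 0.18 (SE, adjusted p = 0.138). Without untreated replicate 1 it was 0.86 (adjusted p = 0.0161), without untreated replicate 2 it was 0.32 (adjusted p = 0.242), and the second probe set gave 0.73 ± 0.14. LPIN1, the phosphatase of the following step, had 500.3 and 525 in TGF-beta-treated cells, against 640 and 675 in untreated cells.

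LPIN1 was lower on both TGF-beta arrays, with a log2 fold change of -0.36 ± 0.11 (SE, adjusted p = 0.136), and its dimmer probe sets gave -0.24 ± 0.17 and -0.13 ± 0.14. DGAT1, which adds the final acyl chain, spread widely, at 125 and 72.4 in TGF-beta-treated cells and 95.1 and 66.0 in untreated cells. The acyl-CoA synthetases ACSL1 and ACSL4, which activate fatty acids, had overlapping arrays and values of 0.01 and -0.02.

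**Figure D4:**
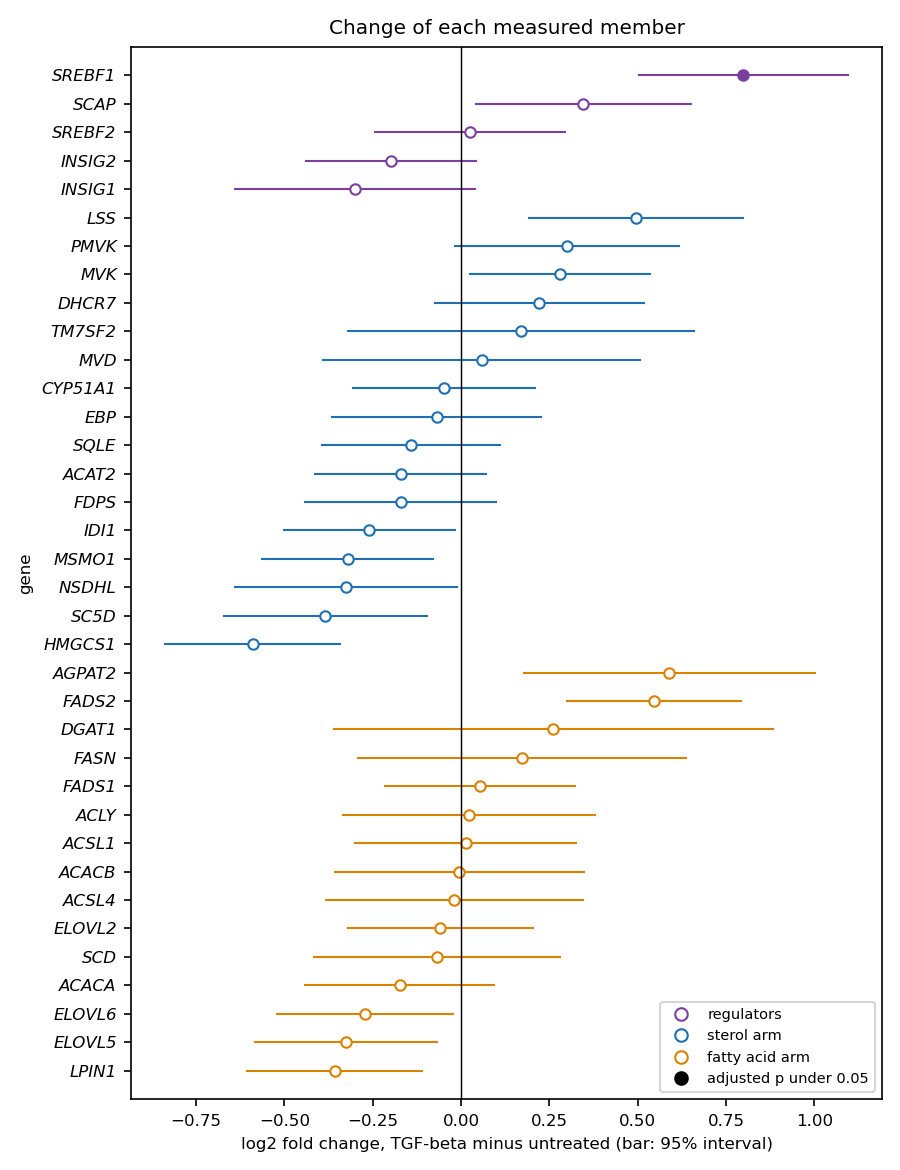
Log2 fold change (TGF-beta minus untreated) of each measured member, with its 95% interval from limma, ordered within regulators, sterol arm and fatty acid arm. The filled point, SREBF1, is the member with an adjusted p under 0.05, and values run from -0.59 (HMGCS1) to 0.80 (SREBF1).

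The arms were set side by side on all 4 arrays as the median deviation of their members from each gene's mean. The sterol arm stood at -0.03 and -0.06 on the TGF-beta arrays and at 0.04 and 0.08 on the untreated arrays. The fatty acid arm stood at 0.01 and -0.02 on the TGF-beta arrays and at 0.03 and 0.05 on the untreated arrays. By these medians both arms were lower on each TGF-beta array than on each untreated array, while all genes lay between -0.01 and 0.01. By means the fatty acid arm stood at 0.04 and -0.01 on the TGF-beta arrays and at 0.0002 and -0.03 on the untreated arrays, so its order depended on the summary used.

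The sterol arm's median change was lower than that of the fatty acid arm by a difference of -0.10. Taken over the 4 pairs of a TGF-beta and an untreated array, this difference was -0.15, 0.001, -0.11 and -0.09, so it was absent in the pair of TGF-beta replicate 1 and untreated replicate 2. Between arrays of the same group it was -0.01 for TGF-beta and -0.03 for untreated cells. Members of an arm are not replicates, so this is a description with no test.

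**Figure D5:**
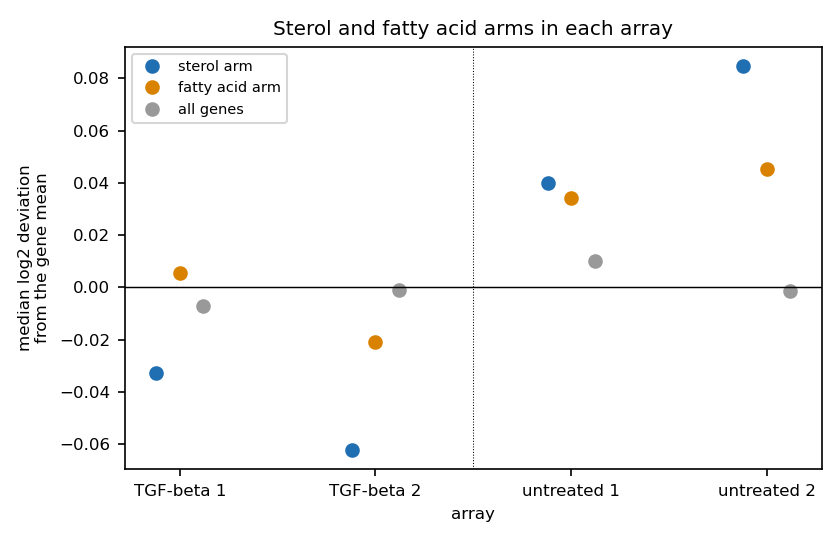
Median log2 deviation from the gene mean (vertical axis) of the 16 sterol arm genes, the 15 fatty acid arm genes and all 12165 genes on each array (horizontal axis), TGF-beta on the left. The sterol arm lies at -0.03 and -0.06 on the TGF-beta arrays and at 0.04 and 0.08 on the untreated arrays.

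The median absolute difference between the untreated arrays was 0.144 in the fatty acid arm, 0.109 in the sterol arm and 0.128 over all genes (log2). In the fatty acid arm 6 of 15 members differed by more than 0.4 on the log2 scale between the untreated arrays, against 1 of 16 in the sterol arm and 8.05% of all genes, a limit chosen after the values were seen. On the second untreated array FASN, AGPAT2 and DGAT1 were lower than on the first, by differences of -0.62, -0.54 and -0.53. ACACB, ACLY and SCD were higher there, by 0.42, 0.43 and 0.41, just past that limit. In the sterol arm TM7SF2 was the exception, at 74.9 and 122 in untreated cells, against 106 and 109 in TGF-beta-treated cells.

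Of 24 members with several probe sets, all probe sets had the same sign in 14 and differed in sign in 10. SREBF1, FADS2 and MSMO1 have 1 probe set each, so no second reading bears on them.

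Of 55 other genes of the pathway, 42 were measured and 0 were called by limma, with 9 at an unadjusted p under 0.05 (21.4%, against 18.0% of all genes), 3 with higher and 6 with lower values. Their median log2 fold change was -0.05. The proteases that release SREBPs were of opposite sign, MBTPS1 at 0.40 ± 0.15 (SE, adjusted p = 0.233) and MBTPS2 at -0.29 ± 0.12 (adjusted p = 0.257). In sterol and isoprenoid synthesis, GGPS1, which makes geranylgeranyl diphosphate, stood at -0.46 ± 0.12 (adjusted p = 0.0983), LBR, a sterol reductase of the nuclear envelope, at -0.33 ± 0.12, and FNTB, a farnesyltransferase subunit, at 0.35 ± 0.12.

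Genes of sterol uptake, transport and storage had negative values in 9 of 11 measured members, with a median of -0.16, where 6258 of all 12165 genes were negative. The list's median was -0.003 and -0.11 for TGF-beta replicates 1 and 2 against untreated replicate 1, and -0.35 and -0.28 against untreated replicate 2, so its size rested largely on the second untreated array. NPC2, which moves cholesterol out of lysosomes, had intensities of 2306 and 2208 in TGF-beta-treated cells, against 3227 and 3111 in untreated cells. Its groups were far apart, with a log2 fold change of -0.49 ± 0.10 (SE, adjusted p = 0.0687). SOAT2, which esterifies cholesterol in hepatocytes and intestine, had 34.6 and 34.1 in TGF-beta-treated cells, against 49.8 and 50.6 in untreated cells, all dim. SOAT2 gave -0.55 ± 0.10 (adjusted p = 0.0551) and OSBP, an oxysterol-binding protein, -0.27 ± 0.11 (adjusted p = 0.272). PLIN2, a coat protein of lipid droplets, had 3326 and 3036 in TGF-beta-treated cells, against 2439 and 2599 in untreated cells, a log2 fold change of 0.34 ± 0.11 (SE, adjusted p = 0.174).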

How the data were processed

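RNA of Huh-7 cells was measured on 4 arrays. The deposited values are linear intensities, with 1 value for each probe set of an array, and the submitters' processing notes name affy; no source used here names the background correction, summary method or genome build. Quartiles were nearly equal between arrays, so no further scaling was applied. Of 22215 probe sets, 19724 name 1 gene, 568 several and 1923 none in the platform annotation, which can be old. Symbols were updated by Entrez gene number for 19707 through RefSeq (GRCh38.p14), and each gene took its brightest probe set. Log2 intensities of 12165 genes were fitted with limma 3.58.1 (R 4.3.3; lmFit, eBayes; 7.41 degrees of freedom) with Benjamini-Hochberg adjustment over all genes, and called at an adjusted p under 0.05. Arrays have no read depth, so their number limits the precision.

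Alternatives were the mean of probe sets, quantile normalization, median centring, an offset of 16, leaving out genes of mean log2 intensity under 6, limma-trend, a replicate block and leaving out each array. Values in every array are given for regulators and for members with an unadjusted p under 0.05, and further members and arrays were added after their values were seen. The members and lists were chosen with earlier results of these data known. Plots used matplotlib 3.10.9 in Python 3.11.15.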

Additional observations from a re-analysis of the deposited data

How the results depend on the processing

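The labels do not say that the replicate numbers pair arrays, so the numbers were not taken as pairs. The same-numbered arrays of the groups did not deviate together (r = 0.01 over 12165 genes). With a replicate block 1229 genes and 5 members were called (SREBF1, HMGCS1, LSS, FADS2 and AGPAT2). Over all genes 63 were called under quantile normalization, 57 with dim genes left out and 616 with limma-trend, against 149 as reported. Without untreated replicate 1 or 2, limma called 345 and 523 genes, and without TGF-beta replicate 1 or 2 it called 0 and 0, with 1326 and 1563 at an unadjusted p under 0.05. Members called numbered 2 with the mean of probe sets (SREBF1, FADS2), 0 under quantile normalization, 2 under median centring (SREBF1, HMGCS1) and 2 with an offset of 16 (HMGCS1, FADS2). With dim genes left out the number was 0, where SREBF1 and ACACB were not tested. With limma-trend it was 8 (SREBF1, HMGCS1, IDI1, LSS, MSMO1, SC5D, FADS2 and AGPAT2). Median log2 fold changes became 0.15 with the mean of probe sets and -0.086 with dim genes left out for regulators. They became -0.14 with the mean of probe sets and -0.071 under quantile normalization for the sterol arm, and -0.027 under quantile normalization and -0.025 under median centring for the fatty acid arm. The difference between the arms was -0.13 with the mean of probe sets and -0.044 under quantile normalization. Without 1 array, medians ran from -0.18 to -0.096 in the sterol arm, from -0.043 to 0.0030 in the fatty acid arm, from -0.066 to 0.12 in regulators and from -0.069 to -0.0062 in the other pathway genes, and the arm difference from -0.16 to -0.060. Values near 0 turned sign under quantile normalization in SREBF2 (-0.0070), ACSL1 (-0.027) and ACSL4 (0.020), under median centring in ACSL1 (-0.0070), and with the mean of probe sets in CYP51A1 (0.085), ELOVL2 (0.030) and FADS1 (-0.030). Leaving out 1 array turned SREBF2 (-0.066 to 0.12), MVD (-0.25 to 0.37), CYP51A1 (-0.12 to 0.027), EBP (-0.20 to 0.066), TM7SF2 (-0.18 to 0.52), FASN (-0.14 to 0.48), ACACB (-0.22 to 0.21), ACLY (-0.19 to 0.24), SCD (-0.27 to 0.14), ELOVL2 (-0.12 to 0.0052), FADS1 (-0.019 to 0.13), ACSL1 (-0.13 to 0.15), ACSL4 (-0.24 to 0.20) and DGAT1 (-0.13 to 0.65). None of these genes was called in any setting, and the cause was not tested. Dim probe sets, with SREBF1 and ACACB under a mean log2 intensity of 6, have little room to fall.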
